A study of Mus musculus and blank sample with 191 samples.

Results

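The uterine epithelium of these mice differed widely from region to region in its RNA level of 3 genes for secreted defence proteins. The regions at both ends of that range are described here. The 60 epithelium regions on the first plate were ranked by a score, the mean log2(Q3 + 1) of Ltf, Lcn2 and C3, where Q3 is a gene's count scaled by the third quartile of the counts of its region. The 20 regions with the highest score are called high regions and the 20 with the lowest low regions, and the 20 between them are called middle regions. They belong to a series of 189 tissue regions, 95 on the first plate and 94 on the second. Since the values of the 3 genes in these same regions chose the groups, every comparison of high with low regions is a description and carries no test.

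The series profiled mouse uterus with the GeoMx whole transcriptome atlas, in which probes are released by light from a chosen area of a fixed section and counted by sequencing. The mice were PV/N, which carry 1 copy of the dominant negative PV mutation of thyroid hormone receptor alpha 1 as a germline change (Thra1PV/+, here PV), and their N/N wild-type counterparts (WT). The first plate held epithelium of 6 PV mice aged 2.4 to 6.3 and 8 WT mice aged 4.0 to 9.0, with ages read as months. A pathologist chose the regions of tissue microarray cores by morphology and by staining for cytokeratin and smooth muscle actin, and mucosa and glands were both sampled. The labels used here say only epithelium or stroma, so a region of surface epithelium cannot be told apart from a region of glands by its label. The stage of the estrous cycle was not among those labels. The authors' methods describe matching of mice by cycle, with metestrus called by inspection and impedance, without naming the animals of these regions. A region holds many cells, so that fewer cells of a type and less RNA per cell cannot be told apart.

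Lactoferrin (Ltf) binds iron and is a classical estrogen-induced secretion of the mouse uterus. Lipocalin 2 (Lcn2) captures the iron carriers of bacteria, and C3 is the central protein of the complement cascade, which is also made by uterine epithelium under estrogen. Estrogen acts through its receptor Esr1 on the epithelium, where a phase of cell division is followed by secretion, while progesterone opposes the division.

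The promoters of the 3 score genes, of Prap1 (the gene with the greatest difference described below) and of Isg15 (an interferon-stimulated gene) are shown because genes that share a level across regions can be compared by the short motifs in front of their starts. They are RefSeq sequences of GRCm38.p6 from 250 bases before to 50 bases after the start, read 5′ to 3′ on the strand of the gene. Capitals mark the motif AGGTCA (the half-site of the estrogen response element), TTGCNNAA (bound by C/EBP factors) or a pair of GAAA with 2 bases between them (found in interferon-stimulated genes), on either strand. They lie at chr9:111019042-111019341 (Ltf, plus strand), chr2:32387690-32387989 (Lcn2, minus), chr17:57228087-57228386 (C3, minus), chr7:140093146-140093445 (Prap1, plus) and chr4:156200769-156201068 (Isg15, minus).
Ltf: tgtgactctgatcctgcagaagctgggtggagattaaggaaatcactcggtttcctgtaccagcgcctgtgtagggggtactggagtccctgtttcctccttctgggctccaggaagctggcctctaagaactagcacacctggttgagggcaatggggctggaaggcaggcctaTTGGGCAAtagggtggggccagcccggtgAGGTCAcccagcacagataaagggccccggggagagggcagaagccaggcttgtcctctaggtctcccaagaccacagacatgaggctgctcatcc
Lcn2: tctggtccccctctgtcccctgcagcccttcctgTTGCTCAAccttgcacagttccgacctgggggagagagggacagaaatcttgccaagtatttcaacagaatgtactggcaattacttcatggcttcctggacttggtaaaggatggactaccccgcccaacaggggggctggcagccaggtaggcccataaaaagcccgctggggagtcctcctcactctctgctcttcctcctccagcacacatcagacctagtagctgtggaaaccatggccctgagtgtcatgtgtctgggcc
C3: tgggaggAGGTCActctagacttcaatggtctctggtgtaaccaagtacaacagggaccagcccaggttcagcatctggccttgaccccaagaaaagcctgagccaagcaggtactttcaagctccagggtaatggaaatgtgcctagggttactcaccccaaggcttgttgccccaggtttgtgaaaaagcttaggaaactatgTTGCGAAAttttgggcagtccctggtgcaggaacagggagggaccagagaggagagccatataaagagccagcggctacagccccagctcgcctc
Prap1: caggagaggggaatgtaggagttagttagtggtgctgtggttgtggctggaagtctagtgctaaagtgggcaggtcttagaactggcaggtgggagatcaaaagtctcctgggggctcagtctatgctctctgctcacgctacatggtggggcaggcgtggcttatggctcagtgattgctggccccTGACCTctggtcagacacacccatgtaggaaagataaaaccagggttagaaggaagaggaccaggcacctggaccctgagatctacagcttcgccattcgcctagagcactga
Isg15: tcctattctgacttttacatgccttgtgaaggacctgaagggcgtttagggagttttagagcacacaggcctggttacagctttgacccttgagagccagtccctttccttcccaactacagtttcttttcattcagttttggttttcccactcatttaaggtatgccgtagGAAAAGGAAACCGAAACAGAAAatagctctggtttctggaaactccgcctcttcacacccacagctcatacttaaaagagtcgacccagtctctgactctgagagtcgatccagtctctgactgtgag
All 3 score genes held the C/EBP motif, which 10.8% of 32851 promoters and 12.2% of 27025 genes held, and Ltf and C3 also held AGGTCA, which 16.3% of promoters and 18.1% of genes held. Among the 15 genes that led the high regions, 11 had a promoter in the table, of which Aoc1, Plac8, Ctsl and Sprr2i held the C/EBP motif and Prap1 and Trpv6 held AGGTCA. The full estrogen response element, GGTCA and TGACC with 3 bases between them, was in 0.07% of all promoters and in none of the 3 score genes, the 11 leading genes or the 19 genes of an estrogen-induced list with a promoter. Of 12 interferon-stimulated genes 7 held the GAAA pair, against 3.44% of all promoters and 3.99% of all genes. Isg15 held it at 3 overlapping places. A match describes these letters in this window only.

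Scores ran from 2.68 to 12.73. High regions lay between 11.33 and 12.73 with a median of 11.76, and low regions between 2.68 and 9.42 with a median of 6.11. At the upper boundary the last 2 high regions, of PV4 and PV3, had scores of 11.36 and 11.33, and the first 2 middle regions, of WT8 and PV4, had 11.31 and 11.20. That boundary cuts through a continuous run of values. At the lower boundary the last middle regions, of WT5 and PV1, had 10.40 and 10.11, and the first low regions, of PV4 and PV5, had 9.42 and 9.21. The score was to a large extent a property of the mouse, with 92.9% of its sum of squares lying between mice. The high regions came from 7 mice, 10 regions from WT (WT3 4, WT5 3, WT2 2, WT6 1) and 10 from PV (PV1 8, PV3 1, PV4 1). The low regions also came from 7 mice, 13 from WT (WT7 5, WT1 4, WT4 3, WT8 1) and 7 from PV (PV4 4, PV5 2, PV2 1). PV4 alone had regions in both groups, so most of the contrast is one of some mice with others, and regions of a mouse are not replicates of a state.

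**Figure D1:**
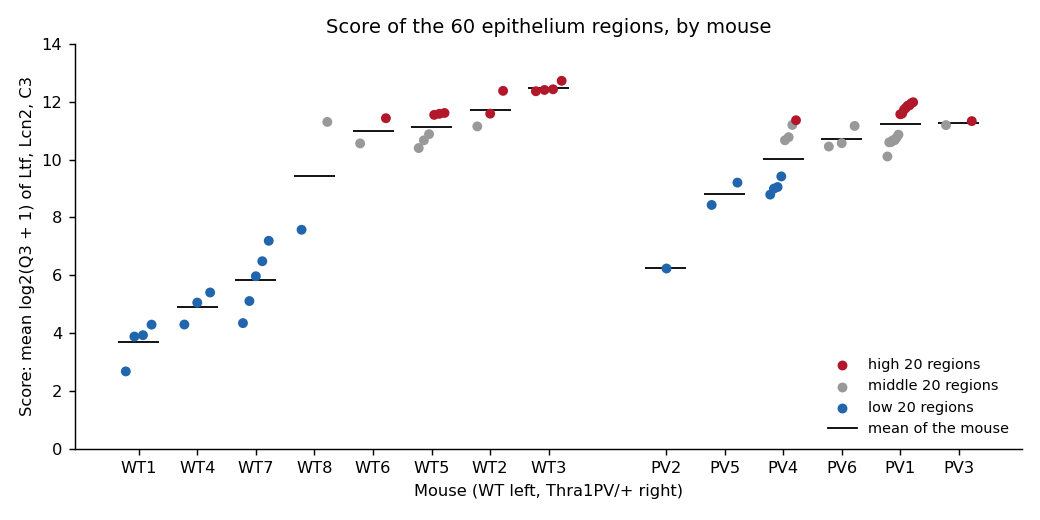
Score of each of the 60 first-plate epithelium regions (points, coloured by group) by mouse, with the mean of each mouse as a line; the y axis is the mean log2(Q3 + 1) of Ltf, Lcn2 and C3. WT1, WT4, WT7, PV2 and PV5 held only low regions and WT3 only high ones, while PV4 held 4 low, 3 middle and 1 high region.

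The 3 score genes were not alike at the low end. Lcn2 was 10.92, 12.37 and 13.48 (lowest, median and highest log2 of Q3 + 1) in high regions and 2.98, 4.99 and 9.25 in low regions. C3 was 11.31, 12.38 and 13.11 in high and 3.39, 5.82 and 10.35 in low regions. For Lcn2 and C3 the groups did not touch. Ltf was 9.81, 10.79 and 12.03 in high and 1.54, 7.68 and 10.39 in low regions, so its groups overlapped. In PV4, Ltf lay between 9.90 and 10.39 in all 8 regions, while Lcn2 went from 8.48 to 12.17. Over the 60 regions Lcn2 and C3 correlated at r = 0.97, and Ltf with them at 0.88 and 0.87 (regions share mice and plate).

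The epithelium label held in both groups. The excess of the mean of 12 columnar genes over the mean of 10 fibroblast genes was 1.00 to 2.98 (median 1.68) in high regions, 0.31 to 2.09 (median 0.82) in low regions and -6.45 to -2.79 in first-plate stroma. Of the 12 columnar genes 3 were at least 1 log2 higher in high regions and 0 lower, with a median difference of 0.29. Elf3 and Krt19 differed by 3.12 and 1.08 between high and low regions, and Krt8, Epcam and Cdh1 by 0.70, 0.54 and 0.37. Depth differed, from 266169 to 3130400 counts (median 1019730) in high regions and from 61691 to 1527910 (median 626624) in low ones. The negative probe, which measures background, was 1.75 to 2.72 (median 2.10) in high and 1.49 to 3.76 (median 2.03) in low regions on the log2(Q3 + 1) scale. The part of depth and of the columnar share in the results was not tested.

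Of the 14878 other genes, 627 (4.21%) were at least 1 log2 higher in high regions and 539 (3.62%) at least 1 log2 lower, while the median of all genes was -0.04. On log2 CPM (counts scaled to the total of the region) the balance turned, with 553 higher and 670 lower. The groups did not overlap for 58 genes (0.39%) that were higher and for 5 (0.0336%) that were lower. These shares describe genes set against groups chosen on the same regions. The 5, named after their values were seen, were Bche, butyrylcholinesterase (2.43 to 4.21 in high regions, difference -2.45), Bckdhb, Tada2a, Bcorl1 and Lima1, an actin-binding protein. The same sign within WT, within PV and between the 1 high and 4 low regions of PV4 was found for 581 of the 627 and 476 of the 539. Since these genes were picked on the difference over the same regions, the sign within WT and within PV was nearly fixed. The slope on the score within mice had the same sign for 597 of the 627 and 503 of the 539, while 43.8% of all genes had a positive slope. Counting each mouse once lowered the counts to 458 and 339, and leaving out PV1, which gave 8 of the 20 high regions, lowered them to 379 and 203.

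The greatest difference toward the high regions was 6.80 for Prap1, which codes for a secreted proline-rich acidic protein of uterus and gut. It was 7.37, 12.19 and 13.48 in high regions against 2.05, 4.28 and 7.93 in low ones. Most high regions were far above every low one and a few overlapped. Prap1 did not follow the mouse as closely as the score did: it ran from 3.41 to 10.91 among the 6 regions of WT5 and from 6.47 to 12.50 among the 15 of PV1, and all 3 regions of PV6, whose scores were 10.45 to 11.17, had 3.65 to 7.82.

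Clca1, a secreted protein of mucus, was 8.65, 11.49 and 12.80 in high and 2.94, 5.69 and 10.27 in low regions, a difference of 5.73 (5.79 within WT, 5.02 within PV and 4.53 within PV4). Muc4, a membrane mucin, was 7.16, 9.06 and 10.24 against 2.59, 4.50 and 7.04, with no overlap and a difference of 4.47. Mucins Muc1 and Muc20 were among the 5 genes whose level went most closely with the score (r = 0.91 and 0.90 over 60 regions). Their differences were 2.59 and 3.14, and neither gene had overlapping groups. The others of these 5 were Sftpd, the collectin surfactant protein D (r = 0.94), the calcium channel gene Trpv6 (0.91) and the acid phosphatase gene Acp5 (0.90). Sftpd was 7.15 to 8.85 in high and 3.10 to 6.63 in low regions.

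Arg1, Ctsl, Plac8 and Egln3 were also among the 15 leading genes. Arg1, arginase, was 5.48, 9.09 and 10.61 in high and 2.08, 3.05 and 3.70 in low regions. The low values were close to the negative probe, so the difference of 5.59 rests on the high side. Ctsl, a lysosomal protease known in the uterus as progesterone-responsive, was 7.77, 10.00 and 10.78 against 3.70, 5.43 and 6.35, without overlap. Plac8 (8.39 to 10.95 against 3.70 to 6.54) and the oxygen-sensing prolyl hydroxylase gene Egln3 (4.79 to 9.42 against 1.84 to 3.86) also had groups apart.

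Aoc1, the diamine oxidase that degrades histamine, had the second greatest difference (6.13) but depended on the mouse. It averaged 9.38 to 11.11 in WT2, WT3, WT5, WT6 and PV6 and 8.16 in PV1. In PV3 and PV4 it averaged 5.82 and 4.77, although both mice had high regions, and the difference within PV4 was 1.00. Aoc1 was thus low in some regions with abundant Lcn2 and C3.

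**Figure D2:**
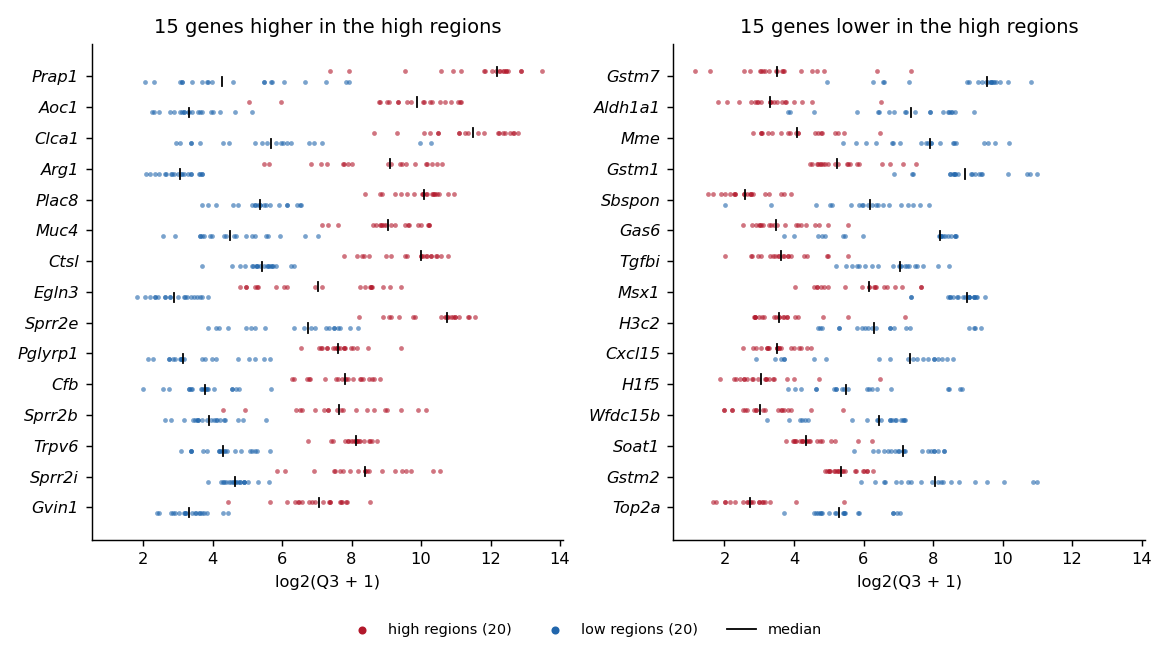
Level in log2(Q3 + 1) of the 15 genes with the greatest difference in each direction, 1 point for each of the 20 high (red) and 20 low (blue) regions and a line for each median. Arg1, Plac8, Muc4 and Ctsl show groups apart, while Prap1 and Clca1 overlap at the edges and all 15 genes on the right overlap.

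Pglyrp1, Cfb and Gvin1 were leading genes with known roles in host defence. Pglyrp1, which recognises peptidoglycan, was 6.54, 7.60 and 9.44 in high and 2.15, 3.15 and 5.66 in low regions (difference 4.02). Cfb, factor B of the alternative complement pathway, was 6.30, 7.82 and 8.82 against 2.00, 3.78 and 5.69 (difference 3.92, 3.54 within WT and 4.14 within PV). Gvin1, an interferon-induced large GTPase, differed by 3.61. The cornified envelope genes Sprr2e, Sprr2b and Sprr2i differed by 4.08, 3.76 and 3.66, but the Sprr2 genes are near-identical copies and the assignment to a copy is uncertain.

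Lists of genes with a known role are given by the number of measured members at least 1 log2 apart and by the median difference, beside -0.04 for all genes. The lists were chosen with earlier results of these data known. Of 19 measured estrogen-induced epithelial genes, 12 were higher and 1 lower, with a median of 1.84 (1.52 within WT, 1.36 within PV, 1.30 within PV4). Gjb2, a gap junction protein, differed by 2.66, Padi2 and Padi4, which convert arginine to citrulline, by 2.49 and 2.23, and Car2, carbonic anhydrase, by 2.38. Greb1 and the progesterone receptor gene Pgr, both estrogen-induced in many tissues, were lower by this measure, at -0.69 and -1.62. The list therefore did not move as one. In PV4 Pgr went the other way, at 0.60. The estrogen receptor gene Esr1 differed little, with 7.30 to 8.22 in high and 7.36 to 8.80 in low regions (difference -0.38).

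Interferon-stimulated genes were higher almost throughout. Of 15 measured, 13 were at least 1 log2 higher and none was lower, with a median of 1.50 (1.20 within WT, 1.91 within PV, 1.52 within PV4). Irf7, the transcription factor that amplifies the type I interferon response, differed by 2.95 and Isg15, a ubiquitin-like modifier, by 2.53. Ifit3, Oasl2 and Ifit1 differed by 1.98, 1.92 and 1.83. The other 2 members, Rsad2 and Ifit2, differed by 0.38 and 0.23.

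Of 22 NF-kB and acute phase genes, 13 were higher and 1 lower, with a median of 1.15. That median was 0.41 within WT and 2.10 within PV, and the difference between genotypes was not tested. Bcl3 and Nfkbiz, atypical inhibitors that act in the nucleus, differed by 2.33 and 2.22, Cebpd and Cebpb, the C/EBP factors, by 1.95 and 1.49, and the neutrophil attractants Cxcl5, Cxcl2 and Cxcl1 by 1.96, 1.76 and 1.61. Haptoglobin (Hp), an acute phase protein, was the member that was lower, at -1.88. Of 6 measured neutrophil genes none reached 1 log2 in either direction (range 0.12 to 0.30), and S100a8 and S100a9 differed by 0.21 and 0.13.

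Complement genes were higher in part. Of 17 measured besides C3, 6 were higher and none lower, with a median of 0.38. Beside Cfb these included Cfi, which holds the alternative pathway in check (2.46), C2 of the classical pathway (2.19), Cd55, which protects host cells (1.24), and C4b (1.00). C1qa, C1qb and C1qc, made by macrophages, differed by 0.30, 0.18 and 0.35. Of 10 macrophage genes Cd68 (2.63) and Cd14 (1.49) were higher, while Adgre1 and Csf1r, which define the cell type, differed by -0.05 and -0.18. Among 18 antimicrobial and mucosal genes 7 were higher and 2 lower, with a median of 0.32. Pigr, which carries immunoglobulin A across epithelium, differed by 3.16, ceruloplasmin (Cp) by 3.06 and Wfdc2, an antiprotease, by 1.50, while Lbp, which binds bacterial lipopolysaccharide, differed by -1.29. None of 16 secretory pathway genes differed by 1 log2 (median 0.35).

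**Figure D3:**
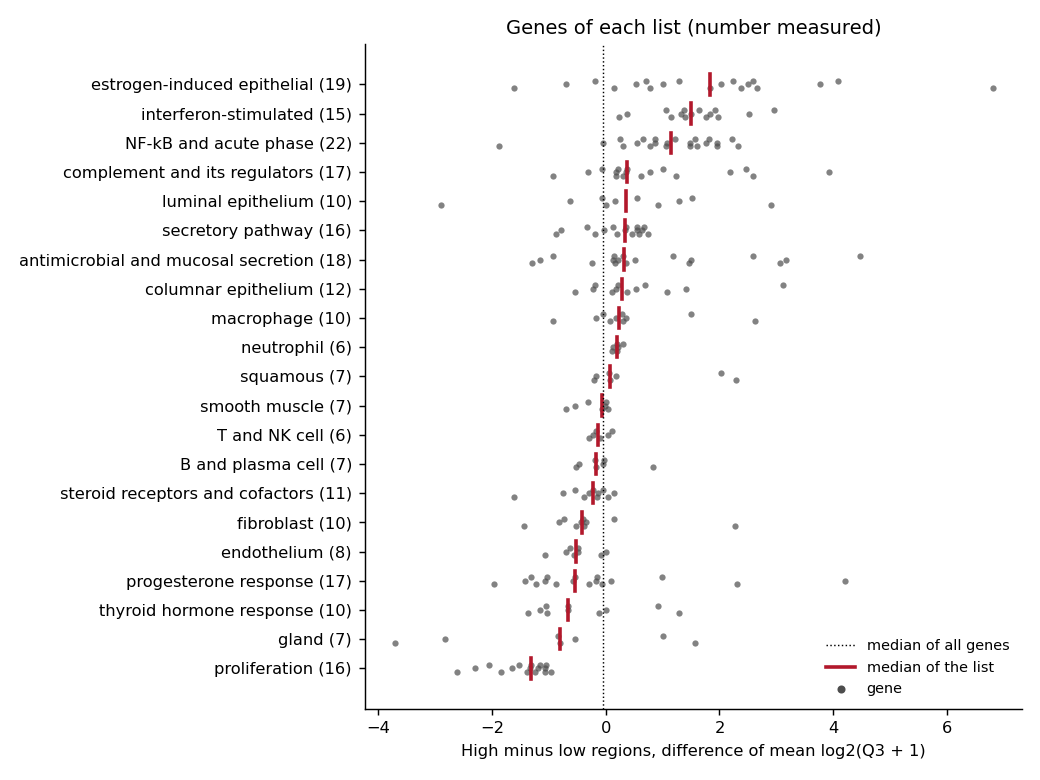
Difference of mean log2(Q3 + 1) between high and low regions for each measured gene (points) of 21 lists, with the list median (red) and the median of all 14878 genes (dotted line). Estrogen-induced, interferon-stimulated and NF-kB genes sit to the right at medians of 1.84, 1.50 and 1.15, and the 16 proliferation genes sit to the left at -1.32.

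Among the genes that led the low regions Gstm7, a glutathione S-transferase, was 1.14, 3.50 and 7.37 in high and 4.96, 9.56 and 10.82 in low regions (difference -5.15). Gstm1 and Gstm2 differed by -3.53 and -2.65, and all 3 belong to a family of close copies. Aldh1a1, which makes retinoic acid, was 1.80, 3.32 and 6.50 against 3.84, 7.35 and 9.17 (difference -3.71). Mme, neprilysin, a membrane peptidase, differed by -3.66 and Soat1, which esterifies cholesterol, by -2.72. Msx1, a homeobox factor of the uterine epithelium before implantation, was 4.02, 6.16 and 7.66 against 7.35, 8.98 and 9.49 (difference -2.89). The 5 genes that ran most against the score over the 60 regions were Slc2a3, a glucose transporter gene (r = -0.88), Sccpdh (-0.86), and Tgfbrap1, Stx18 and Ano2 (each -0.84).

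Proliferation genes were lower as a group. Of 16 measured, 15 were at least 1 log2 lower and the other, Pcna, differed by -0.96, with a median of -1.32 (-0.82 within WT, -2.32 within PV and -1.28 within PV4). Top2a, which untangles replicated DNA, was 1.68, 2.74 and 5.45 in high and 3.70, 5.31 and 7.05 in low regions. Mki67, the standard marker of dividing cells, differed by -2.30 and the replication helicase genes Mcm3, Mcm5 and Mcm2 by -2.05, -1.52 and -1.38. The histone genes H3c2 and H1f5 differed by -2.89 and -2.78, with near-identical copies in the genome. On the score within mice 2 of the 16 genes had a positive slope, against 43.8% of all genes. The slope of Top2a was -0.34 log2 for each unit of score, and those of Mcm7, Pcna, Mcm6 and Mcm2 were -0.13, -0.03, 0.002 and 0.02. By mouse the slope of Top2a was -0.94 in PV1 and -0.37 in PV4, against 0.11 in WT5 and 0.14 in WT7.

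Between the groups gland genes moved with the score in part. Of 7 measured, Aldh1a1 and Cxcl15 were lower and Lif and Sox9 higher, by 1.58 and 1.02, while Foxa2, which specifies uterine glands, differed by -0.81. Within mice 1 of the 7 had a positive slope on the score, against 43.8% of all genes. The median of the 7 within PV4 was -1.49, with Sox9 at -0.80 and Foxa2 at -2.59. Cxcl15, a chemokine of uterine glands, was 2.54, 3.51 and 4.48 in high and 2.90, 7.35 and 8.56 in low regions, and Gas6, a ligand of TAM receptors, was 2.54, 3.47 and 5.54 against 3.70, 8.20 and 8.66. Low regions thus held both low and high values of these 2 genes. Among the 5 regions of WT7, all of them low, Cxcl15 ran from 2.90 to 8.56. Luminal epithelium genes were mixed between the groups as well, Met and Krt7 among the 10 being higher by 1.52 and 1.30 and Msx1 being lower. Within mice 8 of the 10 had a positive slope, and their median within PV4 was 1.22.

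PV4 held both kinds of value within 1 mouse. Its 4 low regions (scores 8.79 to 9.42) had Gas6 at 8.20 to 8.35, Cxcl15 at 6.75 to 7.54 and Prap1 at 4.60 to 6.04. Its 3 middle regions and 1 high region (10.67 to 11.36) had Gas6 at 2.94 to 3.74, Cxcl15 at 2.51 to 3.30 and Prap1 at 11.63 to 12.88. The regions fell into 2 sets that did not overlap for any of the 3 genes. Clca1 was 5.57 to 6.25 in the first set and 9.29 to 10.48 in the second. WT8 had 1 low and 1 middle region, with scores of 7.58 and 11.31, and there Cxcl15 was 7.72 and 3.86, Gas6 8.16 and 4.87 and Prap1 3.13 and 9.08. Cxcl15 and Gas6 were thus lower where the score was higher in both mice, and the part of the share of glands in the contrast was not tested.

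Of 17 progesterone-response genes 2 were higher (Ctsl and the activin subunit gene Inhbb, 2.30) and 6 lower, with a median of -0.54 over all regions, -0.82 within WT and 0.25 within PV. The 6 were Lrp2 (-1.97), Klf15, Fkbp5, Ihh (-1.22), Gata2 and Ptch1. Of 10 thyroid hormone genes 1 was higher and 4 lower, with a median of -0.67. Klf9, a thyroid hormone target, was 2.54 to 5.09 in high and 3.32 to 6.03 in low regions (difference -1.05, -0.75 within WT and -1.12 within PV), and Thra itself differed by -0.66. Dio2, which activates thyroid hormone, differed by 1.29.

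Other cell types contributed no list whose median was shifted by 1 log2. The median difference was -0.42 for 10 fibroblast, -0.07 for 7 smooth muscle, -0.52 for 8 endothelial, 0.23 for 10 macrophage, -0.13 for 6 T and NK cell and -0.17 for 7 B and plasma cell genes. The summed level of the fibroblast genes was 8.81 to 10.37 in high and 8.80 to 10.39 in low regions. Single members moved further, such as the fibroblast gene Fbln1 at 2.27. Within PV4 the median of the B and plasma cell genes was -0.64, with Igkc at -4.62, Jchain at -3.28, Ighm at 0.62 and Cd79b at 0.68. Of 21 squamous genes 7 passed the filter of the deposited table, with a median of 0.08 (-0.02 within PV) and a lowest difference of -0.20, and of these Sfn and Sprr1a were higher by 2.30 and 2.03. Krt5 and Krt14, which define squamous epithelium, were not among the 7. Il33, an epithelial alarmin, was 1.38 to 5.83 in high and 2.05 to 7.70 in low regions.

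Whether the score differed with genotype could be tested, since genotype did not enter the choice of regions. Mean scores were 11.24 (PV1), 6.25 (PV2), 11.26 (PV3), 10.03 (PV4), 8.82 (PV5) and 10.73 (PV6) in PV mice. In WT mice the lowest, median and highest were 3.70, 10.22 and 12.48. The groups overlapped over most of their range. The difference was 0.95, with 9.72 ± 1.93 (SD, n = 6) in PV and 8.77 ± 3.44 (SD, n = 8) in WT (exact permutation test, two-sided, p = 0.579).

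The relation of the score with age did not pass after adjustment. Over 14 mice the score correlated with age at r = 0.46 (permutation p = 0.094) and rho = 0.56 (permutation p = 0.041). After adjustment over r and rho together in the 6 sets of mice tested, both of these values had an adjusted permutation p of 0.196. WT3 lay farthest from the median age, and PV2 and PV5 shared the next place. Without WT3 and PV2 r was 0.25 (n = 12, permutation p = 0.436), without WT3 and PV5 0.40 (n = 12, permutation p = 0.204) and without all 3 mice 0.29 (n = 11, permutation p = 0.389). Within PV r was 0.78 (n = 6, exact permutation p = 0.047, adjusted 0.196) and within WT 0.62 (n = 8, exact permutation p = 0.098). WT1, aged 6.3 with a score of 3.70, ran against the relation, and without it r was 0.68 (permutation p = 0.011).

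Between genotypes no gene passed an adjusted p of 0.05 in the epithelium summed per mouse (edgeR quasi-likelihood test, 0 of 14881 genes, 0% in either direction). At an unadjusted p under 0.05 there were 1223 genes, DESeq2 called 28 and limma 0. None of the 627 and 539 genes was called by edgeR. Klf9 was lower in PV by 1.09 ± 0.21 (SE) on the log2 scale, with an edgeR adjusted p of 0.12, and was called by DESeq2 (adjusted p 0.00987). Il33 was higher in PV by 1.54 ± 0.40 (SE), with an edgeR adjusted p of 0.36. Slc2a3 and Mme, both lower in high regions, differed between PV and WT by -2.92 ± 0.88 (SE) and -1.91 ± 0.66 (SE), with edgeR adjusted p of 0.43 and 0.52.

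The stroma of the same mice shows which of these genes were epithelial. In 13 mice with both compartments, edgeR with the mouse as a block called 4229 genes (28.4%) higher in epithelium and 5151 (34.6%) higher in stroma. With upper-quartile scaling in place of TMM these were 3241 and 6443. Of the 627 genes 374 were higher in epithelium and 78 in stroma, and of the 539 genes 197 and 121. The epithelium sums held the regions in which the score genes were ranked and these genes were picked. The shares are therefore not independent of that choice. Ltf, Lcn2 and C3 were higher in epithelium by 4.22 ± 0.47, 3.98 ± 0.51 and 3.91 ± 0.49 (SE, log2), with edgeR adjusted p of 3.0e-07, 2.0e-06 and 1.3e-06. Clca1 and Prap1 were higher in epithelium by 4.01 ± 0.45 and 3.70 ± 0.38 (SE). Of the 15 leading genes 12 were called epithelial, and of the 15 leading the low regions 8 were called epithelial and 1, Gas6, stromal (-0.93 ± 0.32 SE, edgeR adjusted p 0.017). Gas6 lost that call without the block (edgeR adjusted p 0.35). Msx1 was higher in epithelium by 3.74 ± 0.16 (SE).

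The second plate offered epithelium regions that had no part in the choice. On it, 57 consecutive wells carried compartment markers that matched the label of the next well (57 of 57) more often than their own (21 of 57), while all 37 regions outside that run matched their own label. Only the 23 epithelium regions outside the run were used, from PV1, WT1, WT6, WT7 and WT8. These mice also had first-plate regions, so the plate adds regions and not mice. Scores were 9.02 to 10.61 in the 4 regions of PV1, 4.17 to 7.51 in the 9 of WT7 and 6.58 in the 1 of WT8. In WT1, 4 regions had 3.11 to 4.05 and 1 had 10.61, and in WT6, 2 regions had 9.71 and 10.44 and 2 had 3.52 and 3.60. Those 3 regions stood apart from the other regions of their labelled mouse on both plates, and results are given with and without them, a choice made after the values were seen. Stroma labelled WT6 on this plate was split as well, with scores of 3.50 and 3.52 and of 6.70 and 7.31. Stroma labelled WT1 had 3.23 to 3.82. The mouse labels were taken as given, and the mouse block below rests on them.

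Across these regions limma, with the mouse as a random block, called 591 genes (3.97%) that rose with the score and 445 (2.99%) that fell, of 14878. With the mouse as a fixed block 459 rose and 432 fell (22 regions). The 3 regions that stood apart stayed in that fit, and it was not repeated without them. The wide spread of scores within WT1 and WT6 rests on those regions and on their mouse labels. On log2 CPM the balance turned, with 481 rising and 561 falling. The limma p-values here and below rest on 23 regions of 5 mice, with a correlation of 0.16 between regions of a mouse. That correlation was estimated with the 3 regions included. They measure the scatter of regions and not replication over mice. Of the 627 genes higher in high regions 221 rose and 2 fell (Cdc42ep2 and Serpinf1). The 221 were 35.2% of those genes and 37.4% of the genes that rose. Of the 539 lower genes 130 fell and 2 rose (Ptgs1 and Cryab), which was 24.1% of them and 29.2% of the genes that fell. Without the 3 regions limma called 154 rising (1.04%) and 66 falling (0.444%) genes. Of the 627 then 100 rose and 0 fell, and of the 539, 42 fell and 0 rose. Of the 15 leading genes of the high regions 12 rose (10 without the 3 regions), and of the 15 leading the low regions 7 fell (3 without them).

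For each unit of score Clca1 rose by 1.00 ± 0.09 log2 (SE, limma adjusted p 3.8e-08), Sftpd by 0.58 ± 0.03 (limma adjusted p 5.7e-12), Trpv6 by 0.39 ± 0.04 (limma adjusted p 1.9e-06) and Muc4 by 0.38 ± 0.06 (limma adjusted p 1.5e-04). Prap1 rose by 0.48 ± 0.12 (limma adjusted p 0.016) and lost the call without the 3 regions (0.63 ± 0.16, limma adjusted p 0.058), with the mouse as a fixed block (0.42 ± 0.14, limma adjusted p 0.091) and without PV1 or WT6 (limma adjusted p 0.096 and 0.097). Slc2a3, Soat1 and Top2a fell, by 0.78 ± 0.06, 0.38 ± 0.04 and 0.32 ± 0.05 for each unit (limma adjusted p 5.0e-09, 5.4e-08 and 1.2e-04). Aldh1a1 had a slope of -0.22 ± 0.10 (limma adjusted p 0.23), which did not pass. These slopes kept their direction without the 3 regions.

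Over all 14878 genes 3.97% rose with the score on the second plate and 2.99% fell. By list, 7 of 19 estrogen-induced genes rose on the second plate and none fell (Muc1, Clu, Padi4, Car2, Sprr2e, Gjb2 and Prap1). Of 17 complement genes 5 rose (C2, Cfb, Cfi and Clu among them), of 18 antimicrobial genes 5 rose (Wfdc2, Pigr, Muc1, Muc4 and Cp) and Lbp fell. Of 22 NF-kB genes Nfkbiz, Il1b and Cebpb rose, and of 15 interferon-stimulated genes Irf1 and Usp18. Of 16 proliferation genes Top2a and Ccnb1 fell, and of 7 gland genes Cxcl15 and Spink1. Of 17 progesterone-response genes Ctsl rose and 5 fell, Ihh, its receptor gene Ptch1, Fst, Fkbp5 and Calca. Without the 3 regions the calls were Muc1, Padi4, Car2, Sprr2e and Gjb2 of the estrogen-induced genes, Cfb and Cfi among those of complement, Nfkbiz of NF-kB, Top2a of proliferation, and Ctsl, Ihh, Fst and Ptch1 of the progesterone list, while 0 interferon-stimulated and 0 gland genes were called. Over all genes 1.04% rose and 0.444% fell without the 3 regions. Of the 15 interferon-stimulated genes 14 had a positive slope in both fits, against 6685 and 6854 of all 14878 genes. These list members were named after their values were seen.

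**Figure D4:**
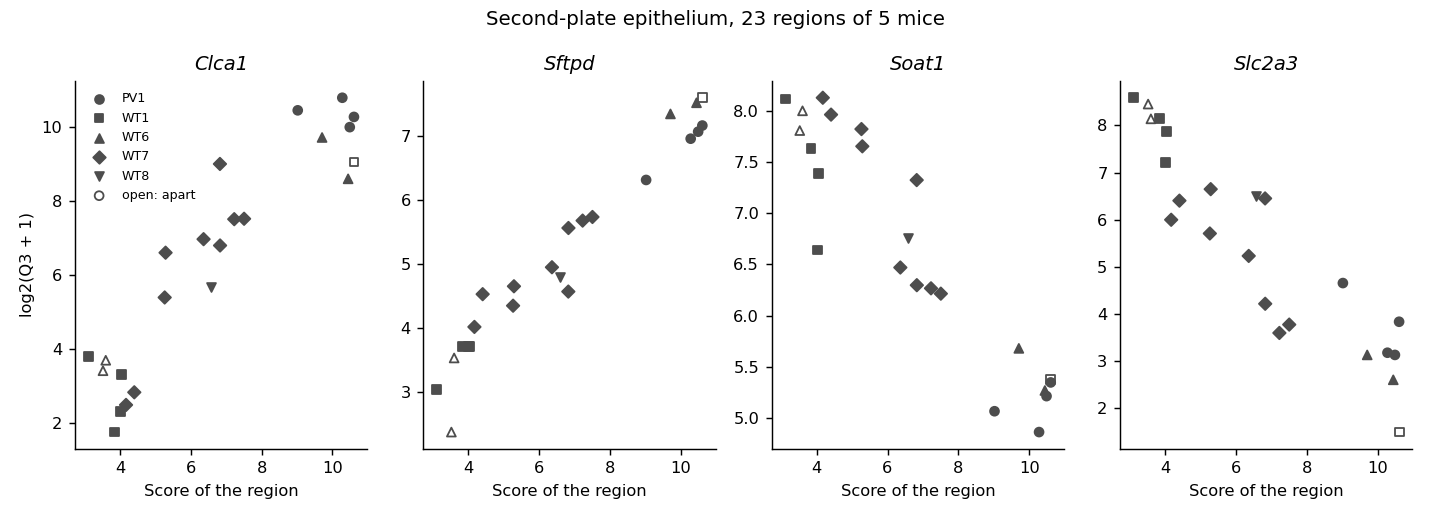
Level in log2(Q3 + 1) of 4 genes against the score of the region in 23 second-plate epithelium regions, with a symbol for each of 5 mice and open symbols for the 3 regions apart from their mouse. Clca1 and Sftpd rose by 1.00 and 0.58 log2 for each unit of score, and Soat1 and Slc2a3 fell by 0.38 and 0.78.

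The stroma next to this epithelium was compared with the score of the mouse, a comparison chosen after the data were seen. Stroma regions had no part in the choice of regions, and the mouse was the replicate (13 mice, edgeR). Age was not a term in that fit. WT2 and WT3, with the highest scores, were the oldest mice (7.4 and 9.0), and PV2 and PV5, with low regions only, the youngest (2.4). A relation with the score was thus not separated from one with age. Genes that rose with the epithelium score numbered 14 (0.0941%) and genes that fell 25 (0.168%), while 1515 had an unadjusted p under 0.05. The rising genes included Irf7, the 1 member of the interferon-stimulated list that passed. In the order of rising score the mice were WT1, WT4, WT7, PV2, PV5, WT8, PV4, PV6, WT5, PV1, PV3, WT2 and WT3. In that order Irf7 in stroma was 5.50, 4.54, 5.58, 3.64, 5.42, 6.87, 6.78, 6.91, 6.32, 8.52, 7.37, 7.26 and 8.31 log2 CPM (counts scaled to the library size), with at most 5.58 in the first 5 mice and at least 6.32 in the other 8. Irf7 rose by 0.37 ± 0.06 log2 (SE) for each unit of score (edgeR adjusted p 0.013). The stroma of PV2 was 1 region of 85336 counts in which Irf7 stood at 1, the least the table holds.

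Ifi27l2a, Oas2 and Trim30a, known as interferon-stimulated but outside the list and named after their values were seen, rose by 0.32 ± 0.06, 0.28 ± 0.05 and 0.24 ± 0.05 (SE) for each unit, with edgeR adjusted p of 0.020, 0.028 and 0.021. Ms4a6c, a gene of macrophages and monocytes, rose by 0.29 ± 0.04 (edgeR adjusted p 0.0079) and Ctsc, which activates granule proteases, by 0.24 ± 0.05 (edgeR adjusted p 0.028). Of the 15 interferon-stimulated genes 15 had a positive slope in stroma (median 0.21), though only Irf7 passed. All 10 macrophage, 7 smooth muscle and 6 neutrophil genes had a positive slope too (medians 0.17, 0.13 and 0.09) and none passed, while 7882 of all 14878 genes had one (median 0.00). Columnar epithelium genes in stroma had 7 of 12 positive slopes and a median of 0.00. All 15 leading genes of the high regions had a positive slope in stroma (median 0.18), and none passed. The summed level of the 3 score genes in stroma correlated with the epithelium score at r = 0.78 (13 mice). The source of that signal in the stroma regions was not tested. The summed level in stroma ran from 8.28 to 11.78 log2 CPM for the macrophage genes, 9.10 to 11.01 for the smooth muscle genes and 7.27 to 8.76 for the neutrophil genes, and the part of these cell types was not tested.

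Falling genes in stroma included Gli1 of hedgehog signalling. Gli1, a target and effector of the pathway, was 7.14, 8.03, 7.25, 6.65, 5.84, 7.22, 6.54, 5.06, 5.65, 4.79, 4.44, 3.64 and 4.10 log2 CPM in stroma, in the same order of mice. The first 7 were all above the last 6, and the slope was -0.38 ± 0.06 (SE, edgeR adjusted p 0.013). The ligand gene of the pathway in this tissue is Ihh of the epithelium, which differed by -1.22 between high and low regions and fell with the score on the second plate by 0.21 ± 0.03 (SE, limma adjusted p 4.2e-05). A link between Ihh in epithelium and Gli1 in stroma was not tested. Of the 17 progesterone-response genes, Ptch1 among them, only Fst was called in stroma. Fst, follistatin, which binds activin, fell by 0.38 ± 0.06 (edgeR adjusted p 0.0077), and the collagen gene Col14a1 by 0.27 ± 0.03 (edgeR adjusted p 0.0012). Msx1 and Gstm7, which led the low epithelium regions, fell in stroma as well, by 0.23 ± 0.04 and 0.30 ± 0.05 (edgeR adjusted p 0.012 and 0.014).

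Of the 627 genes 5 rose in stroma and none fell (Irf7, Ifi27l2a, Ifi211, Oas2 and Trim30a), and of the 539 genes 13 fell and none rose. The 5 were 0.797% of the 627 and 35.7% of the 14 rising genes, and the 13 were 2.41% of the 539 and 52% of the 25 falling genes. The calls in stroma were few and depended on single mice. Without WT4 edgeR called 5 genes and without WT7 6. Without WT3, the mouse with the highest score, it called 13, of which 1 rose and 12 fell. Without WT1, the mouse with the lowest score, edgeR called 238. With genotype as a covariate 7 were called, and of the genes above Ifi27l2a, Oas2, Trim30a, Ctsc, Gli1, Fst, Msx1 and Gstm7 lost the call (edgeR adjusted p from 0.052 for Fst to 0.073 for Gstm7).

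**Figure D5:**
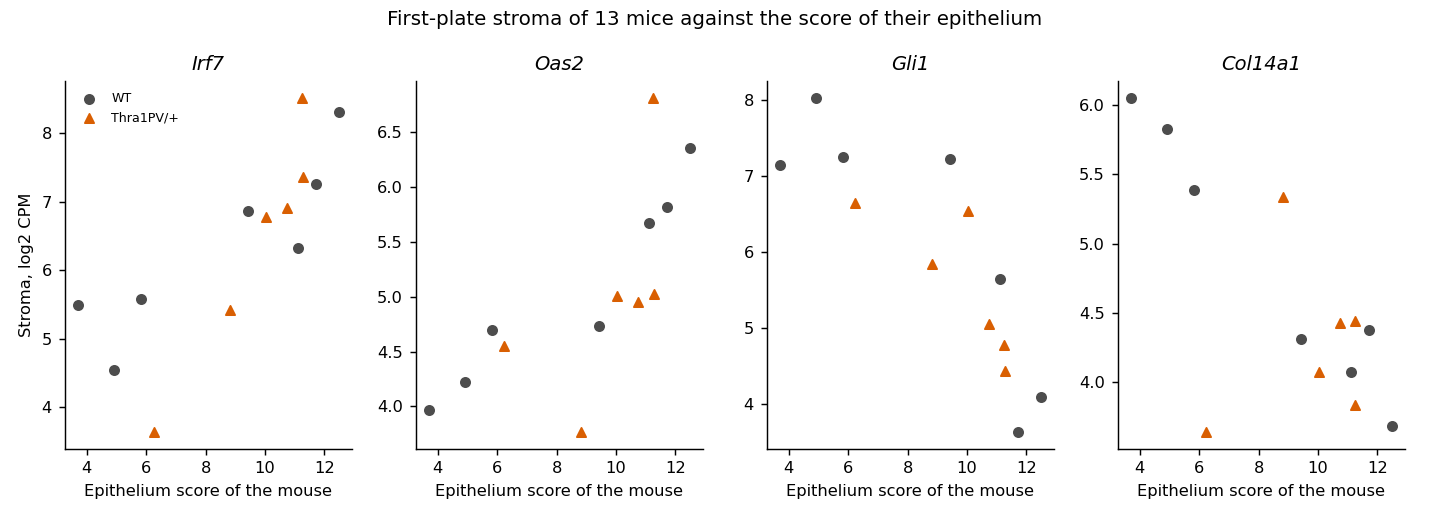
Stroma level in log2 CPM of 4 genes against the mean epithelium score of the mouse, 1 point for each of 13 mice (WT circles, Thra1PV/+ triangles). Irf7 and Oas2 rose by 0.37 and 0.28 log2 for each unit of score, and Gli1 and Col14a1 fell by 0.38 and 0.27; the PV2 point for Irf7 and Col14a1 rests on 1 count.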

How the data were processed

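The values are those of 189 tissue regions of 14 mice in the labels (13 in the design text). Per the labels' processing notes, the submitters named the build mm10, R 4.1.2 and Space Ranger, and the authors describe Q3 normalisation and target filtering with GeomxTools. The deposited table used for levels holds signal, the count of a region divided by its third-quartile factor, for 14881 genes besides the negative probe. The deposited count table holds expected counts with 0 replaced by 1 for 19962 targets, and these were rounded after summing per mouse. The per-region probe files were not used here.

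Levels are log2(Q3 + 1), with a pseudocount of 1 that understates differences of low genes. Regions were ranked by the score and described in groups of 20. Genes, members and lists were chosen with earlier results of these data known. Named genes are the 15 with the greatest difference in each direction among genes at or above the median level (4.13) with the same sign within WT and PV and in the mean within mice, the 5 with the highest and lowest correlation with the score, and members of the lists. A few list members are not reported here.

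Genotype, compartment (mouse as a block) and stroma were tested with edgeR 4.0.16 (TMM, quasi-likelihood), the second plate with limma 3.58.1 (duplicateCorrelation, consensus correlation 0.16), in R 4.3.3. Tests were two-sided with Benjamini-Hochberg adjustment over the genes of the table and a threshold of 0.05. The score was tested by permutation against genotype in SciPy 1.17.1 and against age in NumPy 2.4.6. DESeq2 1.42.0, other scalings, pseudocounts, group sizes and leaving out each mouse were alternatives. The stroma comparison, the second plate without 3 regions and the age relation without WT3 and PV5 or all 3 mice of extreme age were added after the data were seen. The edgeR and limma steps were tested on simulated data. In the compartment test a mouse gave both samples, which is where the pairing comes from.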

Additional observations from a re-analysis of the deposited data

How the results depend on the processing

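Of 119 genes named or given as list examples, the 75 at least 1 log2 apart between high and low regions kept their direction under the alternatives tried. Of the 44 with smaller differences 17 turned in sign under at least 1 alternative, Il33 among them, and none of these 17 differed by more than 0.63. The alternatives re-cut the same regions by nearly the same score. The leading genes were chosen with the same sign within WT, PV and PV4, so their direction was partly fixed. Within PV4, which was not an alternative, 582 of the 627 and 481 of the 539 genes kept their sign. Pgr (0.60), Sox9 (-0.80), Thrsp (1.30) and Lbp (0.12) were among those of the 75 that turned there. Of 2838 values under the alternatives 29 moved past the spread of a group. Counts moved more. Genes higher in high regions (627) were 374 with a pseudocount of 10 and 322 with 30 against 30 regions, and 379 to 634 with each mouse left out (379 without PV1). Genes lower (539) were 189 with that pseudocount, 169 with 30 against 30 regions, 261 among genes at or above the median level, 339 with each mouse counted once and 203 to 540 with each mouse left out (203 without PV1). Leaving out each mouse gave a score difference of 0.22 to 1.65 between PV and WT and a correlation with age of 0.35 to 0.68 (0.68 without WT1). Genes called for genotype were 0 by edgeR, 28 by DESeq2 and 0 to 6 with each mouse left out. For the compartments there were 7952 calls with no replicate block against 9380 with it, and 8875 to 9383 with each mouse left out. On the second plate 1036 genes were called, 220 without the 3 regions apart, 4208 with all regions labelled epithelium (displaced wells included) and 359 to 1254 with each mouse left out (359 without WT6, 465 without WT1). In stroma 39 were called by edgeR, 185 by DESeq2, 7 with genotype as a covariate and 5 to 238 with each mouse left out. The causes of these moves were not tested, beyond the fewer samples or genes of the settings that leave some out. Some levels lay near the negative probe, such as Arg1 in low and Sbspon in high regions, and a difference is then less certain on that side. The part of depth was not tested.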
